A study of Mus musculus with 6 samples.

Results

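The genes described here encode enzymes of sterol and fatty acid synthesis, the SREBP proteins that regulate them, and a few genes of sterol transport. They were taken from a list of 34 mouse genes, and 33 of the 34 were present among the 34199 genes of the count files. Expression of Hmgcs1 was not analysed here, but its promoter window is among those searched below. The 33 genes comprised 15 of sterol synthesis, 9 of fatty acid synthesis, 5 SREBP regulators and 4 of sterol transport and LXR response. All 33 passed the filter on low counts, which kept 12460 genes for testing. RNA was sequenced from iGMPs, granulocyte-macrophage progenitors from the bone marrow of C57Bl/6 mice carrying the Lys-GFP reporter, immortalized with HOXA9 fused to the estrogen receptor variant ER(G400V). All cells grew in RPMI medium with serum and stem cell factor conditioned medium, and the HOXA9 fusion is active only while estradiol (150 ng/ml) is present. In the CAF-1 OFF group, 500 µM IPTG for 24 h switched on an shRNA that targets Chaf1b, a gene for part of the nucleosome assembly factor CAF-1, and estradiol was kept. The lines that carry this shRNA are clonal. The control group received IPTG for 24 h with estradiol (the study's control clones carried a control vector). The HOXA9 OFF group was washed and kept without estradiol for 24 h. No IPTG is given for it, and the vector of its line is not given in the sources used here. Where groups differ in clonal line, IPTG or washing, such effects cannot be told apart from those of the condition. Each group held 2 libraries. The study mentions RNA-seq of independent sub-clones at a later time. Whether the 2 libraries of a group at 24 h came from separate cultures or sub-clones is not given in the sources used here, so the p-values measure only the spread between these libraries.

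Cholesterol is built from acetyl-CoA through the mevalonate pathway, squalene and lanosterol. Fatty acids are built from the same precursor by acetyl-CoA carboxylase and fatty acid synthase, then elongated and desaturated. When sterols are scarce, SCAP carries the SREBP transcription factors from the endoplasmic reticulum to the Golgi, where they are cleaved and freed to activate genes of both routes. INSIG proteins hold SCAP back when sterols are plentiful, and the sterol-sensing LXR receptors activate genes of cholesterol export. Myeloid progenitors use both routes to build membranes as they divide and mature.

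SREBP commonly acts at promoters together with NF-Y, which binds the letters CCAAT. Promoter windows from 250 bases before to 50 bases after the gene start (RefSeq, GRCm38.p6) were found for 26 of the 34 listed genes. CCAAT, searched on both strands, was present in windows of 20 of these 26 genes, or in 61.8% of their 34 windows, beside 37.4% of all 32851 windows. The letters CACGTG, which can overlap neither CCAAT nor its complement, were in windows of 5 genes and in 17.6% of the 34 windows, beside 7.15% of all windows. TCACNCCAC, a sterol element spelling whose ends can overlap the others, was in 2.94% of the 34 windows and in 1.24% of all windows. The only match among the 34 windows was in that of Hmgcs1. These are matches of letters and not shown to be binding sites. Windows of 4 genes are shown because these genes met the thresholds in a comparison with HOXA9 OFF. Abcg1 met them too, and no window was found for it. The 4 genes are Mvd (chr8:122443373-122443672, minus strand), Acss2 (chr2:155517793-155518092, plus strand), Elovl6 (chr3:129532136-129532435, plus strand) and Fads2 (chr19:10101454-10101753, minus strand). Each is written along the gene's own strand, and capitals mark CCAAT or its complement ATTGG.
Mvd: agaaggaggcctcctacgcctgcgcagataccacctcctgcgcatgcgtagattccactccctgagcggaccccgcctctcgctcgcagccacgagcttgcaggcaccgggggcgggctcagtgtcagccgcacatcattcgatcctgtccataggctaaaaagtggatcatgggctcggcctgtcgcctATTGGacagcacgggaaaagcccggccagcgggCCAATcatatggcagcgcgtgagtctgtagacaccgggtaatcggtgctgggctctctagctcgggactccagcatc
Acss2: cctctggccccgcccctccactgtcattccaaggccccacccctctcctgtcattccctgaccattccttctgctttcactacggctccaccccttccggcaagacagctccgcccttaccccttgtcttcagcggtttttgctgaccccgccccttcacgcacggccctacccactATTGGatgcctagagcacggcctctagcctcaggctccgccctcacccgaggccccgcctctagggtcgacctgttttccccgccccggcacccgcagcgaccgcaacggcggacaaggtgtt
Elovl6: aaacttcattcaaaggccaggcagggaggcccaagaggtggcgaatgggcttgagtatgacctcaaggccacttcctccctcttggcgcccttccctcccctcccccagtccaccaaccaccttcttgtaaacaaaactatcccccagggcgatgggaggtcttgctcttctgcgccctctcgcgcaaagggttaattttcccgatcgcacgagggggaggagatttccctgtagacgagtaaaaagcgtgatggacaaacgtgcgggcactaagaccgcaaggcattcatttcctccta
Fads2: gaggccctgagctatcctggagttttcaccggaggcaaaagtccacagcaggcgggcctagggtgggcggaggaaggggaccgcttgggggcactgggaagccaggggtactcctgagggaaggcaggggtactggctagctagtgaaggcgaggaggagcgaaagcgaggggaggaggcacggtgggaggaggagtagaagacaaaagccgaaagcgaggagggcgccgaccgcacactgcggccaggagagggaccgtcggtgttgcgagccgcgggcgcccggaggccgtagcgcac
Mvd held 2 CCAAT matches and Acss2 held 1, and the windows of Elovl6 and Fads2 held none.

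The libraries held 16773560 to 25170898 counts on genes, so a gene at 3 counts stood at 0.118 to 0.182 CPM (counts scaled to TMM-normalized library size). Chaf1b, the target of the shRNA, measured 90.0 and 105 CPM in control, compared with 17.8 and 12.1 CPM in CAF-1 OFF and with 64.6 and 61.4 CPM in HOXA9 OFF. Its log2 fold change was -2.71 ± 0.20 (SE) in CAF-1 OFF against control, with FDR 0.0198. Summed over 10 progenitor markers, levels ran from 12455 to 18219 CPM over the 6 libraries. Of these markers, 6 passed the thresholds (fold change of 1.5, FDR under 0.05) in HOXA9 OFF against control, 1 higher and 5 lower, where 22% of all genes passed, 13% higher and 8.97% lower. Of 8 markers of maturing neutrophils, 7 were higher there. Their summed level was 109 and 99.7 CPM in control, beside 432 and 695 CPM in CAF-1 OFF and 827 and 463 CPM in HOXA9 OFF. Mmp8 made up 332 and 630 CPM of the CAF-1 OFF sums, and without it the other 7 summed to 38.5 and 59.3 CPM in control, beside 99.8 and 64.6 CPM in CAF-1 OFF and 771 and 401 CPM in HOXA9 OFF. Of 6 monocyte markers, 4 were higher and 1, Ccr2, was lower in HOXA9 OFF. Their sums ranged from 426 to 585 CPM in control and from 609 to 761 CPM in HOXA9 OFF. The CAF-1 OFF sums were 651 and 562 CPM. Ccr2 alone made up 346 and 539 CPM of the control sums and 67.2 and 212 CPM of the HOXA9 OFF sums. Over mast cell, megakaryocyte or erythroid and lymphoid lists, 2 megakaryocyte or erythroid genes were higher, 2 lymphoid genes were lower and no mast cell gene was called in HOXA9 OFF, and Cd3e of T cells was at 0 in all 6 libraries. In CAF-1 OFF against control, 0 of the 37 tested markers were called by edgeR, beside 0.0321% of all genes. Of the 37, 31 lay above 0. Libraries did not overlap for 19 markers that were higher and 0 that were lower, beside 20.1% and 20% of all genes. The 8 neutrophil markers all lay above 0, and 7 of them did not overlap between the groups. An unadjusted p under the 0.05 threshold was found for 12 markers and 10.7% of all genes, and DESeq2 called 5 markers and 1.54% of all genes. The part of these shifts in the results below was not tested. In such bulk RNA, fewer cells with a transcript and less transcript per cell cannot be told apart.

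The control libraries give the level of each gene per kilobase of exon. Scd2, a stearoyl-CoA desaturase that makes monounsaturated fatty acids, was the highest of the 33 genes, at 352 and 366 CPM per kb. Acly, which makes cytosolic acetyl-CoA from citrate, followed at 120 and 121 CPM per kb. Next came Fads2, the delta-6 desaturase, at 105 and 121 CPM per kb, and Fdps, which makes farnesyl diphosphate, at 105 and 120 CPM per kb. The ranges of Acly and Fads2 overlapped, as did those of Fads2 and Fdps. Insig1 stood at 91.7 and 93.0 CPM per kb, below Fdps in both libraries. At the low end were Idi1, the isopentenyl diphosphate isomerase, at 1.85 and 1.72 CPM per kb, Abca1, the cholesterol exporter, at 0.656 and 0.863 CPM per kb, and Acss2, which makes acetyl-CoA from acetate, at 0.634 and 0.863 CPM per kb. Abca1 and Acss2 overlapped in this order. Scd1, the other stearoyl-CoA desaturase of the list, differed between libraries of a group, with 8 and 92 counts in control, 5 and 6 in CAF-1 OFF and 0 and 55 in HOXA9 OFF. These libraries of a group disagree by so much that no direction is drawn for Scd1. The plot of levels by library shows every gene on 1 axis.

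**Figure D1:**
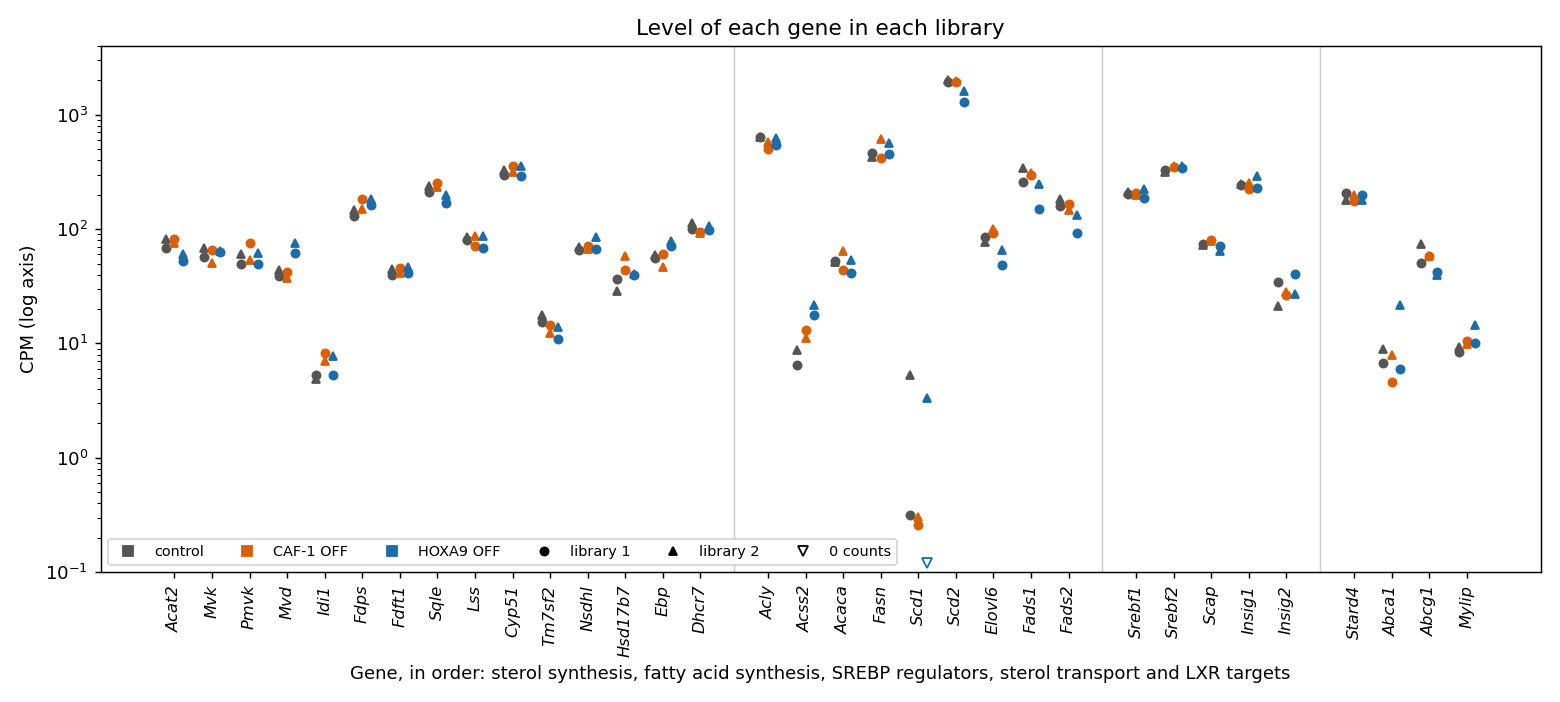
Level of each of the 33 genes in each of the 6 libraries, in CPM on a log axis, with genes ordered by role, colours for groups and point shapes for libraries 1 and 2. Scd2 lies highest, at 1917 and 1995 CPM in control, Scd1 spans 0 to 5.34 CPM, and Acss2 rises from 6.44 and 8.77 CPM in control to 17.9 and 21.7 CPM in HOXA9 OFF.

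The first comparison asked whether loss of CAF-1 changed these genes within 24 h. None of the 33 genes reached a fold change of 1.5 with FDR under 0.05 in CAF-1 OFF against control. DESeq2 also called 0, and 2 genes had an unadjusted p under the 0.05 threshold. Over all genes tested, 0.0321% were called, which is 4 genes, and 10.7% had an unadjusted p that low. The median log2 fold change was 0.04 for sterol synthesis and 0.01 for fatty acid synthesis (0.04 without Scd1), beside -0.0044 for all genes. For 20 of the 33 genes, the 95% interval of the fold change lay within 1.5-fold in either direction. The depth and the 2 libraries a group thus bound a change of that size for those 20 genes, and not for the other 13. Libraries did not overlap for 8 genes that were higher and 4 that were lower in CAF-1 OFF, where 20.1% and 20% of all genes did so.

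The 2 genes with an unadjusted p under the threshold had the largest positive differences of their arms. Hsd17b7, a reductase of late sterol synthesis, measured 44.2 and 58.7 CPM in CAF-1 OFF, beside 36.3 and 28.6 CPM in control. Both CAF-1 OFF libraries were above both control libraries, with a log2 fold change of 0.66 ± 0.18 (SE) and FDR 0.289. Acss2 measured 13.0 and 11.1 CPM in CAF-1 OFF, beside 6.44 and 8.77 CPM in control. Its groups did not overlap either, with a log2 fold change of 0.67 ± 0.22 (SE) and FDR 0.360. Acss2 shares 7.49% of its exonic bases with opposite-strand transcripts, among them Ggt7 and Gss, and the strand setting used in counting is not given in the sources used here. Ggt7 measured 2.29 and 2.08 CPM in CAF-1 OFF, beside 0.118 and 0.464 CPM in control, and its part in the Acss2 count was not tested. In sterol synthesis, the next largest differences were those of Idi1 and Tm7sf2. Idi1 measured 8.31 and 7.04 CPM in CAF-1 OFF and 5.30 and 4.93 CPM in control, at 0.58 ± 0.26 (SE) on the log2 scale with FDR 0.492. Tm7sf2, a sterol reductase, measured 14.4 and 12.3 CPM in CAF-1 OFF and 15.6 and 17.9 CPM in control, at -0.32 ± 0.19 (SE) with FDR 0.607. The libraries of neither gene overlapped between the groups. Elovl6, which elongates palmitate, measured 92.4 and 101 CPM in CAF-1 OFF and 84.6 and 77.6 CPM in control, at 0.25 ± 0.16 (SE) with FDR 0.622. In the transport group, log2 fold changes lay between -0.32 for Abca1 and 0.21 for Mylip, the LXR-induced ubiquitin ligase of lipoprotein receptors, and the lowest FDR was 0.788. Abca1 measured 4.62 and 7.90 CPM in CAF-1 OFF and 6.80 and 8.94 CPM in control, and Mylip measured 10.6 and 9.87 CPM beside 8.48 and 9.29 CPM.

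**Figure D2:**
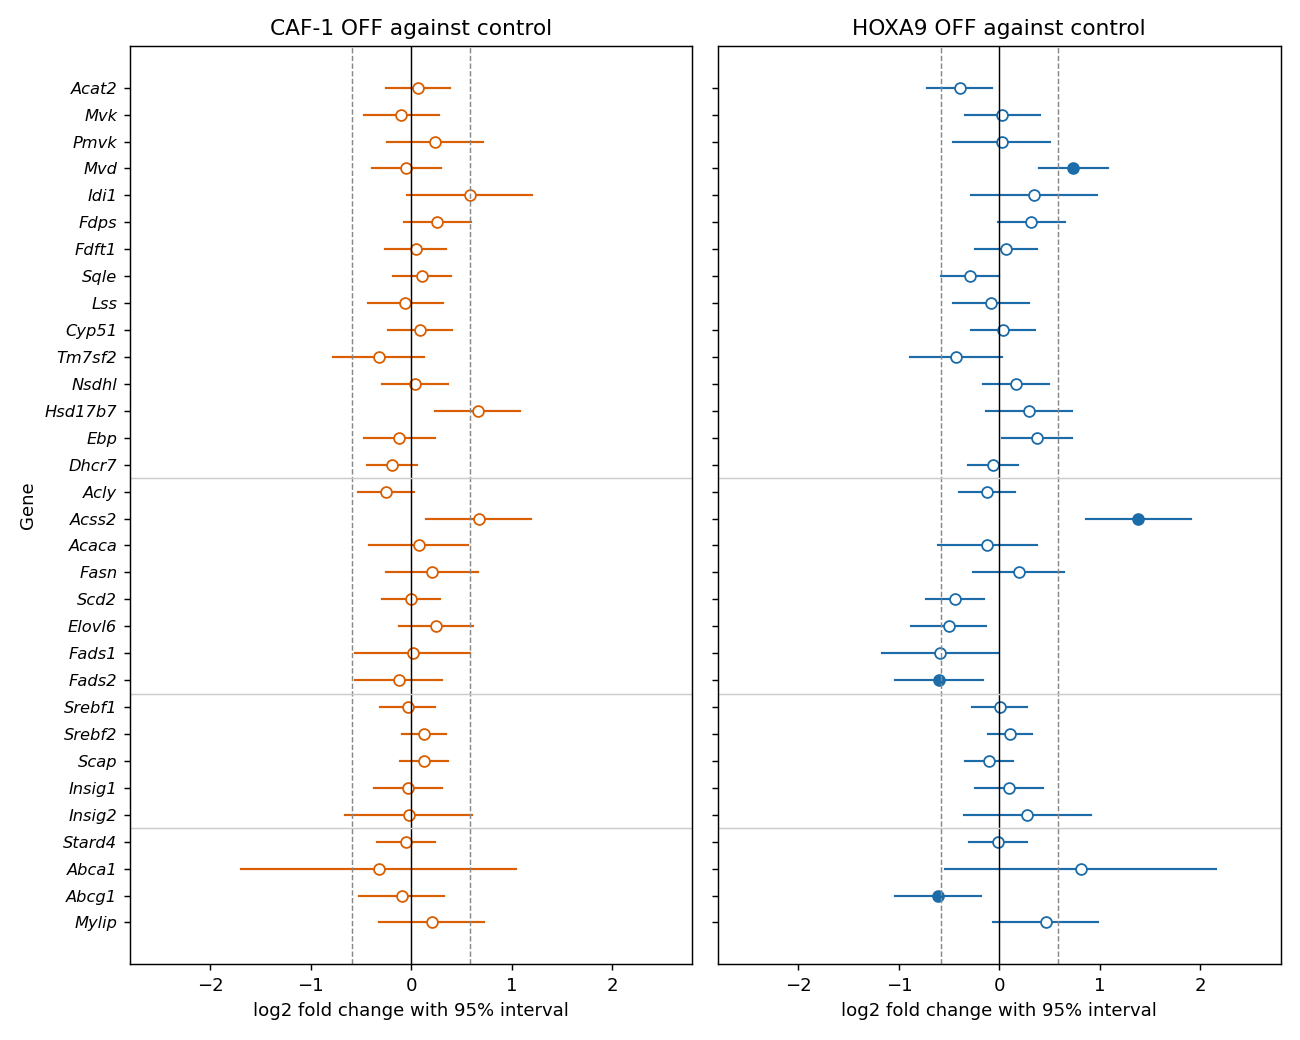
Log2 fold change of 32 of the 33 genes (Scd1 left out) in CAF-1 OFF and HOXA9 OFF against control, with 95% intervals from the edgeR fit. Filled points met the thresholds, dashed lines mark a fold of 1.5, and grey lines part the 4 roles. No point is filled for CAF-1 OFF, and 4 are filled for HOXA9 OFF: Mvd and Acss2 to the right, Fads2 and Abcg1 to the left.

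None of the SREBP regulators was called in CAF-1 OFF or HOXA9 OFF. Srebf2, the SREBP form that favours sterol genes, measured 332 and 315 CPM in control, compared with 348 and 360 CPM in CAF-1 OFF and with 341 and 357 CPM in HOXA9 OFF. The control libraries were the lowest, by a log2 difference of 0.13 ± 0.09 (SE) for CAF-1 OFF (FDR 0.679) and 0.11 ± 0.09 (SE) for HOXA9 OFF (FDR 0.420). Srebf1, the form that favours fatty acid genes, measured 201 and 211 CPM in control, compared with 205 and 198 CPM in CAF-1 OFF and with 188 and 225 CPM in HOXA9 OFF. All 3 groups overlapped for Srebf1, and the log2 fold changes against control were -0.03 and 0.0043. Scap measured 73.6 and 72.0 CPM in control, compared with 80.8 and 78.6 CPM in CAF-1 OFF and with 70.6 and 64.9 CPM in HOXA9 OFF. CAF-1 OFF was highest and HOXA9 OFF lowest for Scap without overlap, yet the largest log2 difference, 0.23 ± 0.10 (SE) for CAF-1 OFF against HOXA9 OFF, had FDR 0.126. Insig1 measured 243 and 246 CPM in control, compared with 225 and 255 CPM in CAF-1 OFF and with 227 and 294 CPM in HOXA9 OFF. Insig2 measured 34.2 and 21.3 CPM in control, compared with 26.4 and 28.3 CPM in CAF-1 OFF and with 40.4 and 27.0 CPM in HOXA9 OFF. Both Insig genes overlapped between all groups. With edgeR, 0 of the 5 regulators were called in any comparison and 0 had an unadjusted p under the 0.05 threshold, and DESeq2 called 0. Against control, 4 of the 5 intervals lay within 1.5-fold in each condition, and the interval of Insig2 was wider. Scap shares 18.9% of its exonic bases with an opposite-strand transcript, which held 2 or 3 counts a library.

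The second comparison asked what followed the switch-off of HOXA9, after which iGMPs differentiate towards neutrophils. Of the 33 genes, 4 were called in HOXA9 OFF against control, 2 higher and 2 lower. Over all genes tested, 22% were called, 13% higher and 8.97% lower. The share among the 33 genes was thus no higher than among all genes. The called genes lay in 3 of the 4 roles. For sterol synthesis the median log2 fold change was 0.04, from -0.43 to 0.74, with 10 of 15 genes above 0. It was -0.04 without control library 1 and -0.02 without HOXA9 OFF library 2, each with 6 of 15 genes above 0. For fatty acid synthesis the median was -0.44, from -0.76 to 1.38, with 7 of 9 genes below 0. Without Scd1, a choice made after seeing the data, the median was -0.28, from -0.60 to 1.38, with 6 of 8 genes below 0. Leaving out HOXA9 OFF library 1 moved the median of fatty acid synthesis from -0.44 to -0.03, leaving out HOXA9 OFF library 2 moved it to -0.61, and leaving out control library 2 moved it to -0.13. Taken for each HOXA9 OFF library against the control mean, the medians had an SD of 0.41 for fatty acid synthesis and 0.14 for sterol synthesis (n = 2), and the difference between these roles was not tested. The median over all genes was -0.0035. Libraries did not overlap for 7 genes that were higher and 10 that were lower in HOXA9 OFF, where 35.1% and 35.9% of all genes did so. The 2 HOXA9 OFF libraries differed for this set, since 29 of the 33 genes were higher in library 2 than in library 1, beside 50.8% of all genes. The same held for 24 of 33 genes between the control libraries and 15 of 33 between the CAF-1 OFF libraries.

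In sterol synthesis, 1 of 15 genes was called. Mvd, which decarboxylates mevalonate diphosphate to isopentenyl diphosphate, measured 61.8 and 75.4 CPM in HOXA9 OFF, 38.6 and 43.7 CPM in control and 42.0 and 37.5 CPM in CAF-1 OFF. HOXA9 OFF was the high group without overlap, and the other groups overlapped. Mvd (chr8:124957496-124967322, mm9, minus strand) rose by 0.74 ± 0.14 (SE) on the log2 scale in HOXA9 OFF against control, a fold of 1.67 with a 95% interval from 1.32 to 2.11 and FDR 0.0105. The call was lost without control library 1 (FDR 0.0695) and without HOXA9 OFF library 2 (FDR 0.0607). Neither kinase upstream of Mvd was called. Mvk, mevalonate kinase, differed by 0.03 ± 0.16 (SE), and Pmvk, which adds the next phosphate, by 0.02 ± 0.20 (SE). These and Cyp51, which removes a methyl group from lanosterol, at 0.04 ± 0.13 (SE), were named after their values were seen. The largest differences short of a call were Tm7sf2, Acat2 and Ebp. Tm7sf2 measured 11.0 and 13.8 CPM in HOXA9 OFF and 15.6 and 17.9 CPM in control, at -0.43 ± 0.19 (SE) with FDR 0.136. Acat2, which makes acetoacetyl-CoA, measured 53.0 and 60.9 CPM in HOXA9 OFF and 68.2 and 81.9 CPM in control, at -0.40 ± 0.13 (SE) with FDR 0.0663. Ebp, a sterol isomerase, measured 71.8 and 78.9 CPM in HOXA9 OFF and 56.1 and 59.9 CPM in control, at 0.38 ± 0.15 (SE) with FDR 0.0968. None of these 3 genes overlapped between the groups. Of the 50-base stretches of Acat2, 41.4% recur in other genes, chiefly Acat3, and 19.2% for Tm7sf2, so their counts are uncertain. Tm7sf2 also shares 15.3% of its exonic bases with a neighbour on its own strand. Fdft1, the squalene synthase, named after its values were seen, shares 26.9% with Ctsb on the opposite strand. Ctsb rose by 1.57 ± 0.14 (SE) on the log2 scale in HOXA9 OFF, while Fdft1 differed by 0.07 ± 0.13 (SE).

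In fatty acid synthesis, 2 of 9 genes were called, in opposite directions. Acss2 measured 17.9 and 21.7 CPM in HOXA9 OFF, beside 6.44 and 8.77 CPM in control, from 370 and 358 counts beside 164 and 151. The 3 groups did not overlap, with control lowest and CAF-1 OFF between. Acss2 (chr2:155343684-155411460, mm9, plus strand) rose by 1.38 ± 0.22 (SE) on the log2 scale, a fold of 2.61 with a 95% interval from 1.81 to 3.75 and FDR 0.00523. It was called in all 6 fits that left out a library, at 1.16 to 1.62 on the log2 scale. Its opposite-strand neighbours measured 17.4 and 20.6 CPM (Gss) and 0.0482 and 0.121 CPM (Ggt7) in HOXA9 OFF, and in control 19.0 and 20.2 CPM (Gss) and 0.118 and 0.464 CPM (Ggt7). Neither neighbour was called.

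Both HOXA9 OFF libraries lay below both control libraries for 5 of the 9 genes, beside 35.9% of all genes. These were Fads2, Fads1, Elovl6, Scd2 and Acly, of which Fads2 was called. Fads2 measured 91.7 and 133 CPM in HOXA9 OFF, 159 and 182 CPM in control and 165 and 147 CPM in CAF-1 OFF. Fads2 (chr19:10138654-10175993, mm9, minus strand) fell by 0.60 ± 0.18 (SE) on the log2 scale, a fold of 0.659 with a 95% interval from 0.487 to 0.893 and FDR 0.0487. Fads1, the delta-5 desaturase, measured 150.0 and 249 CPM in HOXA9 OFF and 257 and 342 CPM in control, at -0.59 ± 0.24 (SE) with FDR 0.115. Elovl6 measured 48.8 and 65.6 CPM in HOXA9 OFF and 84.6 and 77.6 CPM in control, at -0.51 ± 0.16 (SE) with FDR 0.0501. Scd2, named after its values were seen, measured 1281 and 1602 CPM in HOXA9 OFF and 1917 and 1995 CPM in control. It fell by 0.44 ± 0.12 (SE) on the log2 scale, with FDR 0.0345, short of the fold minimum. With no fold minimum, 5 of the 33 genes passed in this comparison, beside 29.8% of all genes. Acly measured 542 and 625 CPM in HOXA9 OFF and 635 and 639 CPM in control. In all 5 genes HOXA9 OFF library 1 was lower than library 2. The call on Fads2 held in 1 of the 6 fits that left out a library, the fit without HOXA9 OFF library 2 (-0.89, FDR 0.0189). Fads1 (-0.99, FDR 0.0228), Elovl6 (-0.73, FDR 0.0292) and Scd2 (-0.61, FDR 0.0243) were called in that fit too, and in none of the other 5. Fads1 was also called with no filter on low counts (FDR 0.00233) and with the replicate block (FDR 0.0452). With that block the call on Fads2 was lost (FDR 0.0511). In the 5 other fits that left out a library the FDR of Fads2 ran from 0.0522 to 0.210, the highest without control library 2 or HOXA9 OFF library 1. Acly, Acaca (acetyl-CoA carboxylase) and Fasn (fatty acid synthase), named after their values were seen, differed by -0.13 ± 0.12, -0.12 ± 0.21 and 0.19 ± 0.19 (SE) on the log2 scale, with FDR of 0.457 or more.

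Summed over the 15 sterol synthesis genes, levels were 1252 and 1469 CPM in HOXA9 OFF, 1254 and 1396 CPM in control and 1469 and 1328 CPM in CAF-1 OFF. The 3 groups overlapped. Summed over the 9 fatty acid synthesis genes, levels were 2629 and 3321 CPM in HOXA9 OFF, 3579 and 3729 CPM in control and 3462 and 3795 CPM in CAF-1 OFF. Both HOXA9 OFF libraries were below the other 4 here, and all 9 genes were higher in HOXA9 OFF library 2 than in library 1, with a median ratio of 1.28. Scd2 alone made up 52.0% of the fatty acid sum, on average over the 6 libraries. Without Scd2 the groups overlapped, at 1348 and 1719 CPM in HOXA9 OFF, 1662 and 1734 CPM in control and 1530.3 and 1819 CPM in CAF-1 OFF.

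**Figure D3:**
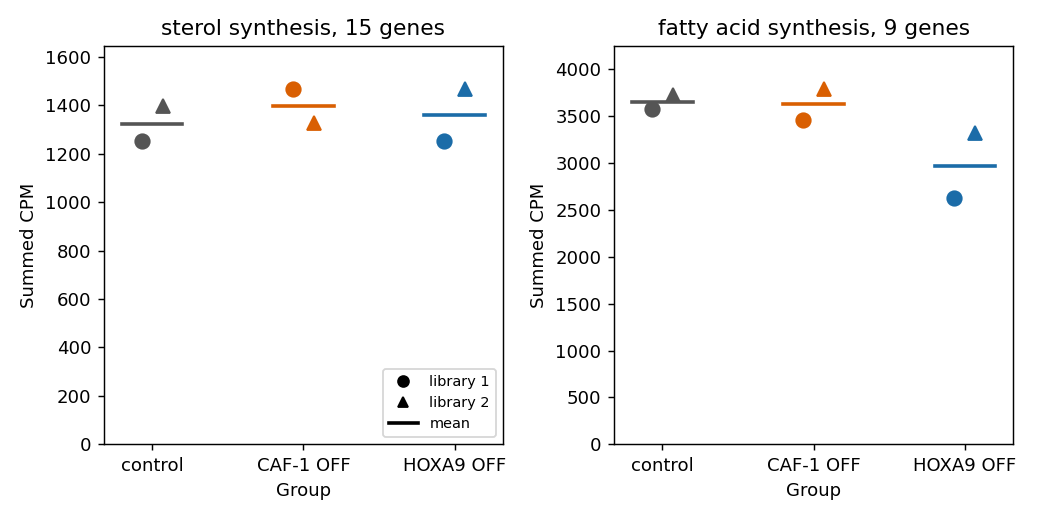
Summed CPM of the 15 sterol synthesis genes and the 9 fatty acid synthesis genes in each library, with a bar at the mean of each group and axes from 0. The sterol sums overlap between groups, and the 2 HOXA9 OFF libraries lie lowest for fatty acid synthesis, at 2629 and 3321 CPM.

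Among the 4 genes of sterol transport and LXR response, 1 was called in HOXA9 OFF. Abcg1, which exports cholesterol to lipoproteins, measured 41.8 and 39.6 CPM in HOXA9 OFF, 50.6 and 74.1 CPM in control and 57.9 and 58.6 CPM in CAF-1 OFF. HOXA9 OFF was lowest without overlap, and the control libraries lay on either side of CAF-1 OFF. Abcg1 (chr17:31194643-31252722, mm9, plus strand) fell by 0.61 ± 0.18 (SE) on the log2 scale, a fold of 0.655 with a 95% interval from 0.485 to 0.883 and FDR 0.0443. With the replicate block this call was lost (FDR 0.0584). The call held in 1 of the 6 fits that left out a library, the fit without control library 1 (-0.87, FDR 0.0137). Without control library 2 the difference was -0.31 with FDR 0.230, and in the other 4 fits the FDR ran from 0.0551 to 0.167. Abca1 measured 6.03 and 21.6 CPM in HOXA9 OFF and 6.80 and 8.94 CPM in control. Library 2 alone was high for Abca1, and the difference of 0.81 ± 0.57 (SE) had FDR 0.323. It was called without HOXA9 OFF library 1 (1.46, FDR 0.0435), and in none of the other 5 such fits. Mylip measured 10.1 and 14.4 CPM in HOXA9 OFF and 8.48 and 9.29 CPM in control, at 0.46 ± 0.22 (SE) with FDR 0.160. Stard4, a carrier of cholesterol within the cell, named after its values were seen, differed by -0.02 ± 0.12 (SE).

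The direct comparison of CAF-1 OFF with HOXA9 OFF tests whether the conditions differed from each other. Of the 33 genes, 3 were called, 1 higher and 2 lower in CAF-1 OFF, beside 22.1% of all genes, of which 9.56% were higher and 12.6% lower. Elovl6 measured 92.4 and 101 CPM in CAF-1 OFF, beside 48.8 and 65.6 CPM in HOXA9 OFF. Elovl6 (chr3:129235304-129341413, mm9, plus strand) was higher in CAF-1 OFF by 0.76 ± 0.16 (SE) on the log2 scale, a fold of 1.69 with a 95% interval from 1.31 to 2.19 and FDR 0.0137. Mvd was lower in CAF-1 OFF, at -0.79 ± 0.14 (SE) with FDR 0.00895, and Acss2 was lower, at -0.71 ± 0.22 (SE) with FDR 0.0464. Acss2 thus stood above control in both conditions, past the test only in HOXA9 OFF, with a difference between the conditions that passed narrowly. That Acss2 call held in 1 of the 6 fits that left out a library, the fit without control library 2, and was lost in the other 5, with FDR from 0.0506 without control library 1 to 0.211 without HOXA9 OFF library 2. The Elovl6 call was lost without HOXA9 OFF library 1 (FDR 0.0624) and the Mvd call without HOXA9 OFF library 2 (FDR 0.0522).

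With no fold minimum, 7 of the 33 genes passed between CAF-1 OFF and HOXA9 OFF, beside 30.3% of all genes. The additional 4 were Acat2 (0.47 ± 0.13 SE, FDR 0.0399), Sqle, the squalene epoxidase (0.40 ± 0.12 SE, FDR 0.0491), Ebp (-0.49 ± 0.15 SE, FDR 0.0444) and Scd2 (0.44 ± 0.12 SE, FDR 0.0348). Sqle measured 213 and 240 CPM in control, compared with 252 and 235 CPM in CAF-1 OFF and with 170 and 200.1 CPM in HOXA9 OFF. HOXA9 OFF was thus lowest for Sqle without overlap. Fads1, at 0.60 ± 0.24 (SE) with FDR 0.108, and Fads2, at 0.48 ± 0.18 (SE) with FDR 0.0952, did not pass by edgeR. Nor did Abcg1, at 0.52 ± 0.18 (SE) with FDR 0.0731, or Abca1, at -1.14 ± 0.57 (SE) with FDR 0.181. DESeq2 called Fads1 (0.61 on the log2 scale, FDR 0.0442), as did the edgeR fits with no filter on low counts (FDR 0.00224), with the replicate block (FDR 0.0385) and without HOXA9 OFF library 2 (1.01, FDR 0.0232). Leaving out HOXA9 OFF library 2 also gave calls for Fads2 (0.77, FDR 0.0308) and Scd2 (0.61, FDR 0.0262). Abca1 was called without HOXA9 OFF library 1 (-1.78, FDR 0.0255), and Ebp without CAF-1 OFF library 1 (-0.69, FDR 0.0204). Libraries did not overlap for 9 genes that were higher and 4 that were lower in CAF-1 OFF, where 33% and 33.7% of all genes did so. The median was 0.02 for sterol synthesis and 0.19 for fatty acid synthesis, beside 0.00075 for all genes. Without Scd1 the fatty acid median was 0.32. Neither median kept its sign in every fit that left out a library. For sterol synthesis it was -0.096 without HOXA9 OFF library 1, 0.20 without HOXA9 OFF library 2, -0.055 without CAF-1 OFF library 1 and 0.11 without CAF-1 OFF library 2. For fatty acid synthesis with Scd1 it was 0.019, 0.61, 0.39 and -0.084 in the same order.

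A further list of 35 pathway genes, of which 31 were tested, sets these results beside their neighbours. In CAF-1 OFF against control, 0 of the 31 were called by edgeR, 0 had an unadjusted p under the 0.05 threshold, and DESeq2 called 0. In HOXA9 OFF against control 8 of the 31 were called, 6 higher and 2 lower, by the same thresholds that called 22% of all genes. In sterol handling, 4 of 7 tested genes were called, all higher, and all 7 lay above 0. Npc1, which exports cholesterol from lysosomes, measured 54.3 and 96.7 CPM in HOXA9 OFF and 26.9 and 30.9 CPM in control, a log2 fold change of 1.38 ± 0.27 (SE) with FDR 0.0111. The call on Npc1 was lost without control library 1 (FDR 0.0586). Abca7, a lipid transporter, measured 178 and 178 CPM in HOXA9 OFF and 77.8 and 81.5 CPM in control, at 1.16 ± 0.13 (SE) with FDR 0.00175. Soat1, which esterifies cholesterol for storage, measured 201 and 240 CPM in HOXA9 OFF and 105 and 92.6 CPM in control, at 1.16 ± 0.18 (SE) with FDR 0.00512. HOXA9 OFF did not overlap control for these 3 genes, and CAF-1 OFF differed from control by -0.06 for Npc1 and Soat1 and by 0.10 for Abca7.

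In the fatty acid part of that list, 4 of 14 tested genes were called in HOXA9 OFF against control, beside 22% of all genes. Of these 4, 2 were higher and 2 lower. Acsl1, which activates long-chain fatty acids as CoA esters, measured 194 and 169 CPM in HOXA9 OFF and 86.7 and 64.8 CPM in control, at 1.26 ± 0.18 (SE) with FDR 0.00345. Elovl7, an elongase, measured 5.55 and 5.21 CPM in HOXA9 OFF and 1.65 and 2.90 CPM in control, at 1.25 ± 0.38 (SE) with FDR 0.0482. The Elovl7 call was lost without either control library and without either HOXA9 OFF library, with FDR up to 0.207. Acsl3, another long-chain acyl-CoA synthetase, measured 58.2 and 67.7 CPM in HOXA9 OFF and 110 and 116 CPM in control, and fell by 0.85 ± 0.12 (SE) on the log2 scale with FDR 0.0032. Acsl1 and Acsl3 thus moved in opposite directions, and both were called in all 6 fits that left out a library. None of the 5 tested genes of sterol synthesis and none of the 5 of SREBP regulation in that list were called in HOXA9 OFF by edgeR, where 3 and 1 of them had an unadjusted p under the 0.05 threshold, beside 41.9% of all genes.

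Between CAF-1 OFF and HOXA9 OFF, a comparison that shares the HOXA9 OFF libraries, 8 of the 31 genes were called by edgeR, 2 higher and 6 lower in CAF-1 OFF, beside 9.56% and 12.6% of all genes. In sterol handling 5 of 7 tested genes were called lower in CAF-1 OFF, and all 7 lay below 0. Npc1 measured 24.6 and 30.8 CPM in CAF-1 OFF, at -1.44 ± 0.27 (SE) with FDR 0.0103. Soat1 measured 78.9 and 110 CPM in CAF-1 OFF, at -1.22 ± 0.18 (SE) with FDR 0.00464, and Abca7 measured 75.5 and 95.2 CPM, at -1.06 ± 0.13 (SE) with FDR 0.00246. All 3 lay below both HOXA9 OFF libraries. Npc2, which hands cholesterol to Npc1 in lysosomes, measured 339 and 275 CPM in CAF-1 OFF and 543 and 549 CPM in HOXA9 OFF, at -0.83 ± 0.13 (SE) with FDR 0.00547. Stard3, a sterol carrier of endosomes named after its values were seen, differed by -0.69 ± 0.13 (SE) with FDR 0.00938, a call lost without HOXA9 OFF library 2 (FDR 0.0587). The calls on Npc1, Soat1, Abca7 and Npc2 held in all 6 fits that left out a library. So did those on Acsl1, lower in CAF-1 OFF at -1.05 ± 0.17 (SE) with FDR 0.00629, and Acsl3, higher at 0.71 ± 0.12 (SE) with FDR 0.00598. The remaining call, on Mid1ip1 (0.59, FDR 0.0206), chosen after its values were seen, held in 3 of the 6.

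**Figure D4:**
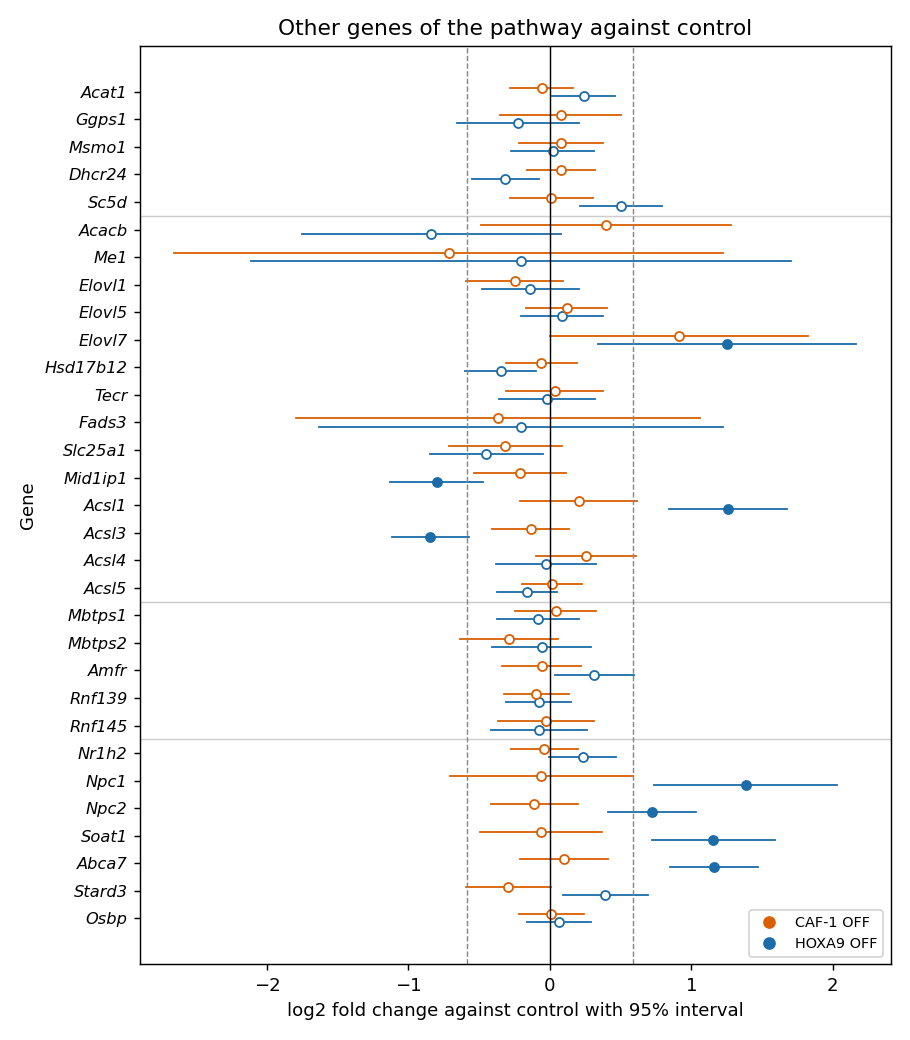
Log2 fold change against control of the 31 tested genes of the further pathway list in CAF-1 OFF (orange) and HOXA9 OFF (blue), with 95% intervals, filled points for genes that met the thresholds and dashed lines at a fold of 1.5. The 8 filled points all belong to HOXA9 OFF, and 4 of them are sterol handling genes to the right of 0.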

How the data were processed

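Bulk RNA-seq of total RNA was analysed from 6 libraries. The authors mapped reads with STAR to mm9 and deposited HTSeq counts per gene, as raw read counts. The annotation and strand setting are not given in the sources used here. The HTSeq tally lines, which held between 101% and 117% as many reads as the genes, were left out.

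Counts were tested with edgeR 4.0.16 (limma 3.58.1, R 4.3.3), with TMM scaling, filterByExpr and 1 quasi-likelihood fit over all 6 libraries. FDR is the Benjamini-Hochberg adjusted p over 12460 genes. A gene was called where its fold change reached 1.5 with FDR under 0.05, cutoffs taken from the study. SE is the log2 fold change over the square root of F, and 95% intervals use 6.82 degrees of freedom. Fold changes use the default prior count of the edgeR fit. A prior count of 2 was used only in the log2 levels behind the correlations of same-numbered libraries. Levels per kilobase use exons of GENCODE vM1 (mm9). The code was tested on simulated data. Intervals cover these libraries only.

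Members and lists were chosen with earlier results of these data known. Values in every library are given for called genes and regulators. Of the other members, up to 3 with the largest differences per role are named in each comparison, beside those at either end of the levels. At most 6 called genes of the further list are named in a comparison by this rule, and any gene outside it is said to be chosen after its values were seen. Alternatives covered scaling, filter, test (DESeq2 1.42.0), libraries used, thresholds and a replicate block.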

Additional observations from a re-analysis of the deposited data

How the results depend on the processing

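Among the 33 genes, calls in CAF-1 OFF against control rose from 0 to 2 with no filter on low counts (Hsd17b7 and Scd1), where the share of all genes called rose from 0.0321% to 1.9%, and were 0 in every fit that left out a library. Calls in HOXA9 OFF against control fell from 4 to 2 when only the 4 libraries compared were fitted and to 1 (Acss2) at a fold change of 2 and FDR under 0.01, and ran from 2 to 5 when a library was left out. Calls in CAF-1 OFF against HOXA9 OFF changed from 3 to 6 with no filter, to 7 with no fold minimum and to 0 at the stricter thresholds, and ran from 2 to 4 when a library was left out. For the median log2 fold change, leaving out a library gave -0.038 to 0.14 for sterol synthesis and -0.029 to 0.067 for fatty acid synthesis in CAF-1 OFF against control, -0.044 to 0.17 and -0.61 to -0.03 in HOXA9 OFF against control, and -0.096 to 0.20 and -0.084 to 0.61 in CAF-1 OFF against HOXA9 OFF. Scaling by library size alone moved the median of all genes in HOXA9 OFF by -0.08 and that of sterol synthesis from 0.04 to -0.04, so no direction is drawn from it. In HOXA9 OFF against control, Acss2 was called under all 13 alternatives and Mvd under 11. None of the 33 genes had a call in the opposite direction to its reported fold change, or lost a call by turning sign, under these 13 alternatives, which were run for the 33 genes alone. The causes were not tested. Scd1, at 0 to 92 counts, is limited by the difference between libraries of a group. It gave no value at a mean of at least 5 CPM, or with only the 4 libraries compared where CAF-1 OFF was one group.

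Replicate numbers are shared between groups, but no source says what they mark. Same-numbered deviations correlated at -0.18 (CAF-1 OFF and control), 0.46 (HOXA9 OFF and control) and 0.03 (CAF-1 OFF and HOXA9 OFF). With the replicate block, calls numbered 0 for CAF-1 OFF and 3 (Acss2, Fads1 and Mvd) for HOXA9 OFF, each against control, and 3 (Elovl6, Fads1 and Mvd) between the conditions. In the same order, medians with the block were 0.05, 0.04 and 0.03 for sterol synthesis and 0.04, -0.45 and 0.18 for fatty acid synthesis. With CAF-1 OFF numbers crossed, a choice made after seeing the data, calls numbered 0, 5 and 4.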

Other observations

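Sc5d and Hsd17b12, chosen after their values were seen, passed the FDR threshold in HOXA9 OFF against control without reaching the fold minimum. Sc5d, a desaturase of late sterol synthesis, measured 147 and 175 CPM in HOXA9 OFF, 120 and 107 CPM in control and 116 and 113 CPM in CAF-1 OFF, a log2 fold change of 0.50 ± 0.12 (SE) for HOXA9 OFF against control with FDR 0.0229 by edgeR. Hsd17b12, a reductase of fatty acid elongation, measured 161 and 162 CPM in HOXA9 OFF, 207 and 203 CPM in control and 211 and 183 CPM in CAF-1 OFF. Its log2 fold change for HOXA9 OFF against control was -0.35 ± 0.11 (SE) with FDR 0.0475. In CAF-1 OFF both genes overlapped control. Mid1ip1, which promotes polymerization of acetyl-CoA carboxylase, measured 116 and 110 CPM in HOXA9 OFF, 222 and 171 CPM in control and 171 and 169 CPM in CAF-1 OFF, and fell by 0.80 ± 0.14 (SE) on the log2 scale in HOXA9 OFF against control with FDR 0.00711. Mid1ip1 was also chosen after its values were seen.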
